A study of Homo sapiens with 12 samples.

Results

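The alpha and beta tubulins are the subunits of the microtubule. The 10 genes described here were chosen by name as alpha and beta tubulin isotypes, with earlier results of these data known. Further alpha and beta isotypes, with low counts, stand in a related list below. They comprised 4 alpha genes (TUBA1A, TUBA1B, TUBA1C and TUBA4A) and 6 beta genes (TUBB, TUBB2A, TUBB2B, TUBB3, TUBB4B and TUBB6), of 60675 gene IDs in the count table. All 10 were found by their Ensembl IDs, and all had counts in every library. RNA sequencing was done on unmodified SW1783 cells, 1 established human astrocytoma line, in 4 groups of 3 libraries. Cells of the dosed groups were exposed for 24 h to a water extract of Aconitum carmichaeli Debeaux (ACD) at 20 µg/mL (low dose), 100 µg/mL (medium dose) or 500 µg/mL (high dose), and cells of the vehicle group were given PBS with 2% DMSO, the solvent of the extract stock. A treatment protocol attached to the samples describes Poria cocos, a different herb, whereas the titles, the treatment labels and the study's methods name ACD. That mismatch is not explained in the sources used here. Total counts ranged from 18863863 to 24200576 per library. The sources used here do not say whether the 3 libraries of a group came from separate cultures, and the p-values measure only the spread between libraries.

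An alpha and a beta subunit fold with the help of chaperones, pair into a dimer and assemble end to end into the wall of the microtubule, which serves as track for motor proteins and as material for the mitotic spindle. Cells carry several isotypes of each subunit, which differ mostly in the acidic tail at the C-terminus, where modifying enzymes act and many motors and associated proteins bind. Free tubulin also limits its own messenger RNA. When soluble dimer is in excess, the protein TTC5 recognises the first residues of a new tubulin chain on the ribosome and recruits the adaptor SCAPER and the CCR4-NOT deadenylase, and the message is degraded. TUBB3 is widely used as a neuronal marker, but it is also expressed in glioma and other tumour cells.

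The first 30 coding bases are shown because they encode the residues that TTC5 reads. Each begins at the start codon, and capitals mark codons 2 to 4.
TUBA1A: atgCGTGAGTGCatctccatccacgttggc
TUBA1B: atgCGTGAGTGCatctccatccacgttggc
TUBA1C: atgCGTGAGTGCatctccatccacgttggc
TUBA4A: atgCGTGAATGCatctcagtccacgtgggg
TUBB: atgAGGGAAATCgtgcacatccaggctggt
TUBB2A: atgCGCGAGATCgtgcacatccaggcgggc
TUBB2B: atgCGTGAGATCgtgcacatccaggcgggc
TUBB3: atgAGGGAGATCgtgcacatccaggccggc
TUBB4B: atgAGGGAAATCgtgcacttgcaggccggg
TUBB6: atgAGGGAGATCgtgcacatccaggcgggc
The 3 TUBA1 genes had the same 30 bases, and among the beta genes the marked codons differed in places where the genetic code gives synonymous choices.

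The last 60 coding bases are shown for TUBA4A and the beta genes because the tail they encode is where the isotypes differ and where the tail enzymes act. Capitals mark the last codon before the stop codon.
TUBA4A: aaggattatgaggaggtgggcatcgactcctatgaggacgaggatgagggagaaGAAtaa
TUBB: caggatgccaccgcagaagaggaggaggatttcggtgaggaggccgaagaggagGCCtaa
TUBB2A: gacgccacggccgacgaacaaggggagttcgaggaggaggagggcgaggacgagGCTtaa
TUBB2B: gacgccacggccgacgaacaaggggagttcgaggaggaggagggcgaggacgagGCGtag
TUBB3: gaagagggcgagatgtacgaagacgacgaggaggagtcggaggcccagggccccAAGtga
TUBB4B: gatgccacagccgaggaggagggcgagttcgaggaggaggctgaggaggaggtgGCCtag
TUBB6: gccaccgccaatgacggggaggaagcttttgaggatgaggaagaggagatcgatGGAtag
Most alpha tubulins end in a tyrosine that vasohibins remove and tubulin tyrosine ligase restores, whereas the last codon of TUBA4A encoded glutamate. Reads from near-identical stretches were divided between genes by the authors' counting program, so that the split within such a pair is less certain than the sum. Over the whole coding sequence TUBB2A and TUBB2B were 98.1% identical, TUBA1A and TUBA1B 97.2% and TUBA1B and TUBA1C 96.8%. Of all 100-base windows of the representative transcript, 55.6% in TUBB2A and 48.7% in TUBB2B also occurred in another gene's transcript on either strand, against 4.71% in TUBB4B and 0% in TUBB6.

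Tubulin mRNA fell with the dose of the extract, and the isotypes fell by unequal amounts. A gene was called a differentially expressed gene (DEG) at an adjusted p under 0.05 in the Wald test of DESeq2 and a fold change over 1.5 in either direction, and "fell" or "rose" is used here where the adjusted p alone passed. At the high dose 6 of the 10 tubulin genes were DEGs, all lower than with vehicle, against 9.57% of the 19453 genes tested that were DEGs lower. With no fold threshold 9 of 10 fell, against 22.6% of genes tested, and TUBB2B was the exception. The libraries of the 2 groups did not overlap for the same number of members, 9 of 10, against 29.9% of genes tested that were lower without overlap. These shares are not matched for abundance, and the members were chosen with earlier results of these data known. The genes tested went down to a mean normalised count of 1.72, whereas all 10 members averaged 100 or more. The median log2 fold change of the 10 genes was -0.64, compared with 0.024 over the 11264 genes averaging 100 or more normalised counts. At the medium dose no member was a DEG, against 1.48% of 14082 genes tested that were DEGs lower, but 7 of 10 fell, against 14.5%. At this dose edgeR called 0 DEGs among the members and 6 of 10 at its adjusted p alone, and 7 had an unadjusted p under 0.05 with either tool. At the low dose 0 of 9 members with an adjusted p passed in DESeq2 and 0 of 10 in edgeR (background 0.0215% for DEGs lower and 1.24% at the adjusted p alone), and 1 of 10 had an unadjusted p under 0.05 with either tool. The 3 comparisons share the vehicle libraries and are therefore not independent. In a likelihood ratio test of DESeq2 among the 4 groups, 9 of 10 members differed, against 45.8% of genes tested.

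**Figure D1:**
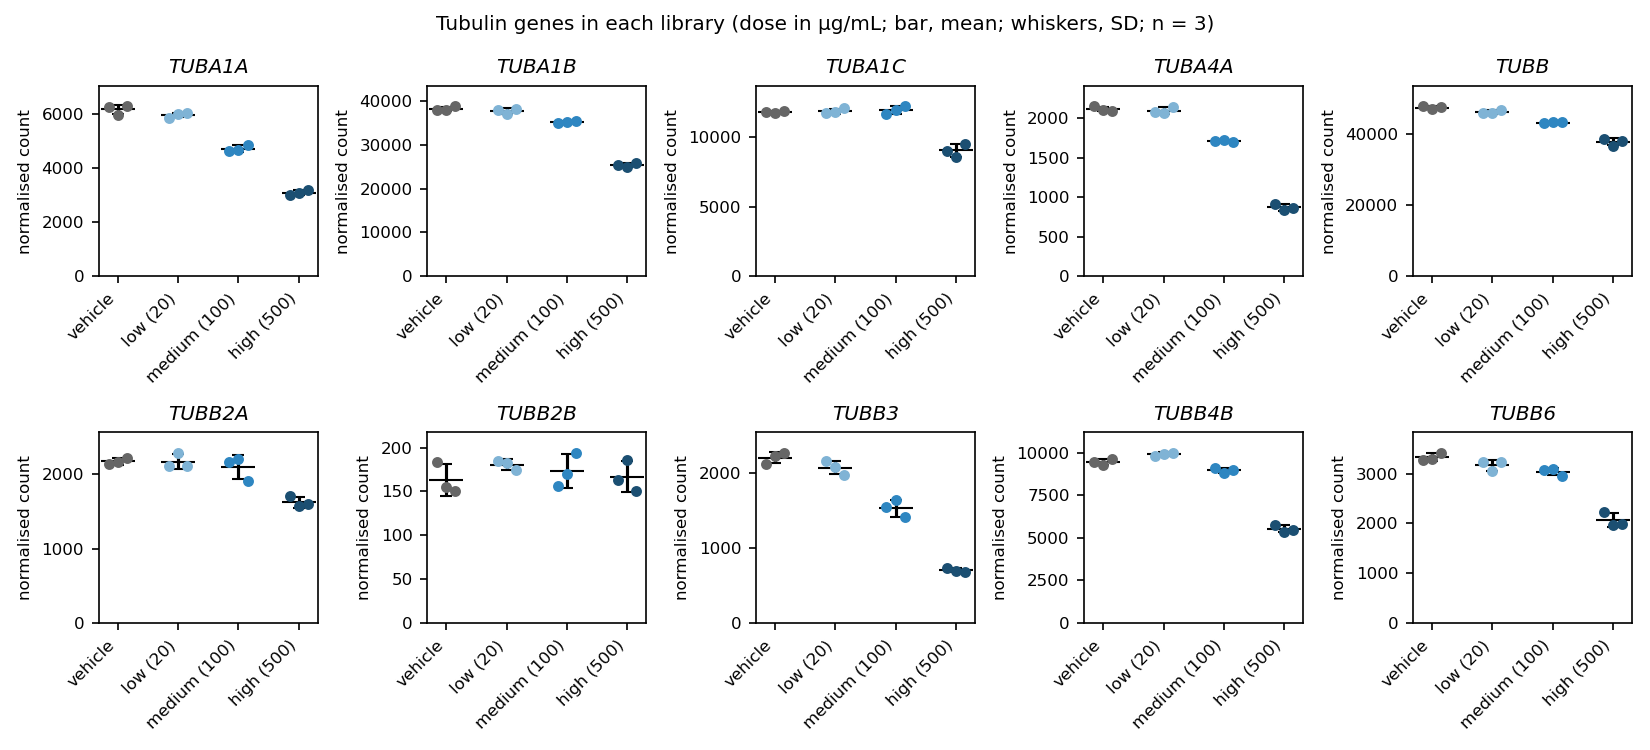
Normalised counts (vertical axis, from 0, scaled per gene) of each of the 10 tubulin genes in every library, by group with the dose in µg/mL; points are libraries, bars the mean and whiskers the SD (n = 3). TUBB3 and TUBA4A step down at the medium dose and again at the high dose, while the 4 groups of TUBB2B lie within each other's range.

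TUBB3, the class III beta tubulin, was downregulated most. Its gene lies at chr16:89921392-89938761 on the plus strand (GRCh38) with 4 exons in the representative transcript. Normalised counts were 2131, 2228 and 2276 with vehicle, 2164, 2084 and 1984 with 20 µg/mL, 1545, 1644 and 1415 with 100 µg/mL and 739, 700 and 682 with 500 µg/mL. Vehicle and low dose libraries overlapped, and the medium and high dose libraries formed 2 separate lower steps. The log2 fold change against vehicle was -1.65 ± 0.061 (SE) at the high dose (DESeq2 adjusted p = 4.84e-159), which left 31.9% of the vehicle level, and -0.53 ± 0.057 at the medium dose (DESeq2 adjusted p = 4.9e-19). With library totals as the scale, the medium dose value of TUBB3 became -0.64 and passed the fold threshold too. A readthrough gene, ENSG00000198211, overlaps TUBB3 on the same strand and shared 92.5% of the windows of its representative transcript, but it received at most 22 counts in any library.

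TUBA4A, an alpha tubulin whose gene does not encode the terminal tyrosine, came next. It lies at chr2:219249710-219277902 on the minus strand. Normalised counts were 2152, 2111 and 2099 with vehicle, 2083, 2062 and 2148 with 20 µg/mL, 1717, 1731 and 1703 with 100 µg/mL and 916, 839 and 861 with 500 µg/mL. The medium and high dose libraries were each below all vehicle libraries, and the low dose libraries overlapped with vehicle. At the high dose TUBA4A changed by -1.29 ± 0.049 in log2 (DESeq2 adjusted p = 7.24e-151) and at the medium dose by -0.30 ± 0.045 (DESeq2 adjusted p = 2.19e-10). STK16, a kinase gene on the opposite strand, overlaps its exons and moved the other way, from a mean normalised count of 306 to 372.

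The 3 TUBA1 genes sit together on chromosome 12 and encode the bulk of alpha tubulin. TUBA1A (chr12:49184686-49189080, minus strand), the isotype best known from developing neurons, had normalised counts of 6272, 5974 and 6293 with vehicle, 5877, 6008 and 6046 with 20 µg/mL, 4637, 4685 and 4862 with 100 µg/mL and 3002, 3084 and 3198 with 500 µg/mL. The medium and high dose groups were each separate from vehicle. Its high dose level was 50.1% of vehicle, a log2 fold change of -0.996 ± 0.034 (DESeq2 adjusted p = 5.17e-183), after -0.39 ± 0.033 at the medium dose (DESeq2 adjusted p = 3.41e-29).

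TUBA1B (chr12:49127782-49131397, minus strand), the ubiquitous alpha tubulin, had normalised counts of 37903, 37869 and 38807 with vehicle, 38029, 37083 and 38247 with 20 µg/mL, 35075, 35238 and 35577 with 100 µg/mL and 25414, 24861 and 25953 with 500 µg/mL. Its high dose change was -0.59 ± 0.021 in log2 (DESeq2 adjusted p = 5.39e-170), which is barely past the fold threshold of 0.585. Without vehicle replicate 3 the change was -0.577 and without high dose replicate 2 it was -0.572, and in both cases TUBA1B was no DEG, although its adjusted p still passed. The antisense gene TUBA1B-AS1 covers 43.96% of its exon bases but had at most 30 counts in a library.

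TUBA1C (chr12:49188736-49274600, plus strand) passed the test against vehicle at the high dose alone with DESeq2 size factors. Its normalised counts were 11804, 11755 and 11911 with vehicle, 11733, 11796 and 12093 with 20 µg/mL, 11672, 11991 and 12224 with 100 µg/mL and 9033, 8596 and 9545 with 500 µg/mL. Only the high dose libraries were apart from vehicle. The log2 fold change was -0.38 ± 0.032 at the high dose (DESeq2 adjusted p = 4.17e-32) and 0.02 at the medium dose (95% interval -0.045 to 0.079, DESeq2 adjusted p = 0.741). With library totals as the scale the medium dose value turned to -0.094 and passed (DESeq2 adjusted p = 0.0105). A lncRNA on the opposite strand, ENSG00000258232, overlaps TUBA1C and moved from a mean normalised count of 2850 to 2400. When TUBA1A, TUBA1B and TUBA1C were summed into 1 feature, which removes the division of shared reads between them, the sum changed by -0.58 ± 0.022 at the high dose (DESeq2 adjusted p = 4.04e-150) and was just short of the fold threshold.

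Among the beta tubulins TUBB4B (chr9:137241287-137243707, plus strand), a broadly expressed isotype also used in cilia, had the second largest drop. Its normalised counts were 9435, 9259 and 9628 with vehicle, 9787, 9949 and 9991 with 20 µg/mL, 9102, 8819 and 8992 with 100 µg/mL and 5748, 5358 and 5474 with 500 µg/mL. The low dose libraries were all above vehicle and the medium and high dose libraries all below. The difference was 0.07 in log2 at the low dose (95% interval 0.015 to 0.125, DESeq2 adjusted p = 0.177), -0.07 at the medium dose (DESeq2 adjusted p = 0.0325) and -0.77 ± 0.029 at the high dose (DESeq2 adjusted p = 4.29e-156). The medium dose call of TUBB4B was lost in edgeR (adjusted p = 0.0583), with the replicate number as a block (DESeq2 adjusted p = 0.0502) and in 4 of 6 fits that left out a library. Those were vehicle replicate 1 (DESeq2 adjusted p = 0.0944), vehicle replicate 3 (0.179), medium dose replicate 2 (0.169) and medium dose replicate 3 (0.0848).

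TUBB6 (chr18:12307669-12344320, plus strand), the class V beta tubulin, had normalised counts of 3280, 3291 and 3417 with vehicle, 3239, 3045 and 3233 with 20 µg/mL, 3073, 3091 and 2951 with 100 µg/mL and 2233, 1968 and 1994 with 500 µg/mL. All dosed libraries were below the lowest vehicle library. Its log2 fold change was -0.69 ± 0.046 at the high dose (DESeq2 adjusted p = 2.06e-49), -0.13 at the medium dose (DESeq2 adjusted p = 0.0148) and -0.07 with 20 µg/mL (DESeq2 adjusted p = 0.513). The medium dose call of TUBB6 was lost without vehicle replicate 3 (DESeq2 adjusted p = 0.0941) and without medium dose replicate 3 (0.107).

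TUBB (chr6:30717435-30725538, plus strand), the major class I beta tubulin, had normalised counts of 47636, 46970 and 47327 with vehicle, 45870, 45695 and 46692 with 20 µg/mL, 42853, 43188 and 43155 with 100 µg/mL and 38553, 36666 and 37960 with 500 µg/mL. The 4 groups did not overlap. The steps were small, with a log2 fold change of -0.33 ± 0.020 at the high dose (DESeq2 adjusted p = 1.46e-58), -0.14 ± 0.020 at the medium dose (DESeq2 adjusted p = 2.42e-10) and -0.04 ± 0.020 with 20 µg/mL (DESeq2 adjusted p = 0.374).

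TUBB2A and TUBB2B are neighbouring class II beta tubulins at chr6:3153497-3157544 and chr6:3223324-3231730, both on the minus strand. TUBB2A had normalised counts of 2139, 2166 and 2220 with vehicle, 2115, 2291 and 2116 with 20 µg/mL, 2170, 2208 and 1917 with 100 µg/mL and 1705, 1571 and 1599 with 500 µg/mL. Only its high dose libraries stood apart, at -0.42 ± 0.055 in log2 (DESeq2 adjusted p = 1.55e-13). Its medium dose value was -0.05 (DESeq2 adjusted p = 0.52), and with library totals as the scale -0.16 (DESeq2 adjusted p = 0.00797). TUBB2B was the least abundant member, with 184, 155 and 150 normalised counts with vehicle, 185, 183 and 174 with 20 µg/mL, 156, 170 and 194 with 100 µg/mL and 163, 186 and 151 with 500 µg/mL. All groups overlapped, and the high dose estimate was 0.03 in log2 with a 95% interval of -0.254 to 0.318 (DESeq2 adjusted p = 0.889). That interval excludes a drop as large as that of TUBB2A, but the difference between both genes was not tested, and they share near-identical coding sequence. Summed into 1 feature they changed by -0.39 ± 0.050 (DESeq2 adjusted p = 1.31e-13).

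**Figure D2:**
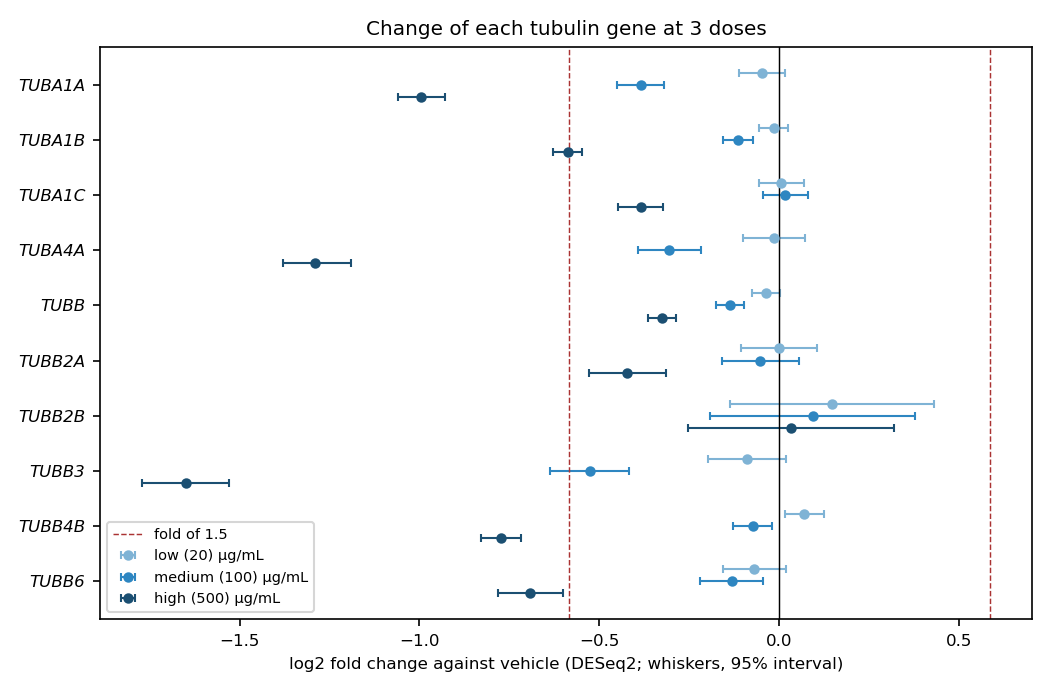
Log2 fold change of each tubulin gene against vehicle (horizontal axis) at 20, 100 and 500 µg/mL, with 95% intervals from DESeq2; dashed lines mark a fold of 1.5. At the high dose the estimates run from -1.65 for TUBB3 to 0.03 for TUBB2B, and at the low dose all lie between -0.09 and 0.15.

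Most of the drop lay between the medium and the high dose. High against medium dose, 4 of 10 members were DEGs lower (TUBB3, TUBA4A, TUBB4B and TUBA1A), against 5.61% of 16467 genes tested, and 9 of 10 fell, against 19.8%. TUBB3 changed by -1.12 ± 0.062 in this step and TUBA4A by -0.98 ± 0.050, with DESeq2 adjusted p = 9.6e-71 and 1.18e-84. TUBB4B changed by -0.70 ± 0.029 (DESeq2 adjusted p = 1.67e-126), so that nearly its whole response fell in this step. TUBB6, at -0.56, was no DEG here, but without high dose replicate 1 it was one, at -0.62. Medium against low dose, no member was a DEG with DESeq2 or edgeR (background 0.589% lower), and 6 of 10 fell with either tool, as many as had an unadjusted p under 0.05, against 9.58% of genes tested with DESeq2. TUBB3 (-0.44 ± 0.057), TUBA1A (-0.34 ± 0.033) and TUBA4A (-0.29 ± 0.045) had the largest log2 differences in that step, and the same 3 genes had the largest at the medium dose against vehicle.

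Levels between genes were compared as normalised counts per kb of the representative transcript. With vehicle the order was TUBA1B (23470 ± 327, SD), TUBB (18810 ± 133), TUBB4B (6040 ± 118), TUBA1C (4188 ± 28), TUBA1A (3696 ± 107), TUBB6 (1772 ± 41), TUBB2A (1346 ± 26), TUBB3 (1296 ± 43), TUBA4A (1035 ± 14) and TUBB2B (84.9 ± 9.7). Only TUBB2A and TUBB3 overlapped in their libraries there. At the high dose TUBA1B (15620 ± 335) and TUBB (15000 ± 384) overlapped, as did TUBB6 (1099 ± 78) and TUBB2A (1006 ± 44), and TUBA4A (425 ± 19) and TUBB3 (414 ± 17). TUBB2B (86.6 ± 9.2) remained the lowest, and the other 9 lay closer to it than with vehicle.

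Summed per kb, the 4 alpha genes gave 32280, 32040 and 32860 normalised counts per kb with vehicle and 21060, 20580 and 21660 at the high dose. The 6 beta genes gave 29390, 29080 and 29580 with vehicle and 21770, 20530 and 21130 at the high dose. The alpha sum after the low, medium and high dose was 98.9%, 91.4% and 65.1% of the vehicle mean, and the beta sum 98.8%, 91.2% and 72.03%. Alpha genes made up 52.5% ± 0.15 (SD, n = 3) of the alpha and beta sums together with vehicle and 49.95% ± 0.73 at the high dose. The make-up of each sum also shifted. TUBB went from 64.1% ± 0.43 to 71.0% ± 0.52 of the beta sum, while TUBB4B went from 20.6% ± 0.23 to 16.7% ± 0.16 and TUBB3 from 4.42% ± 0.14 to 1.96% ± 0.059. In the alpha sum TUBA1C went from 12.9% ± 0.080 to 15.2% ± 0.41, TUBA1A from 11.4% ± 0.24 to 8.77% ± 0.23 and TUBA4A from 3.20% ± 0.070 to 2.02% ± 0.095. In each of these shares the vehicle and high dose libraries lay apart. The 10 genes took 0.607% ± 0.0038 of all counts with vehicle, 0.584% ± 0.0083 with 20 µg/mL, 0.515% ± 0.0040 with 100 µg/mL and 0.394% ± 0.0080 with 500 µg/mL. These sums and shares are descriptions, with no test.

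**Figure D3:**
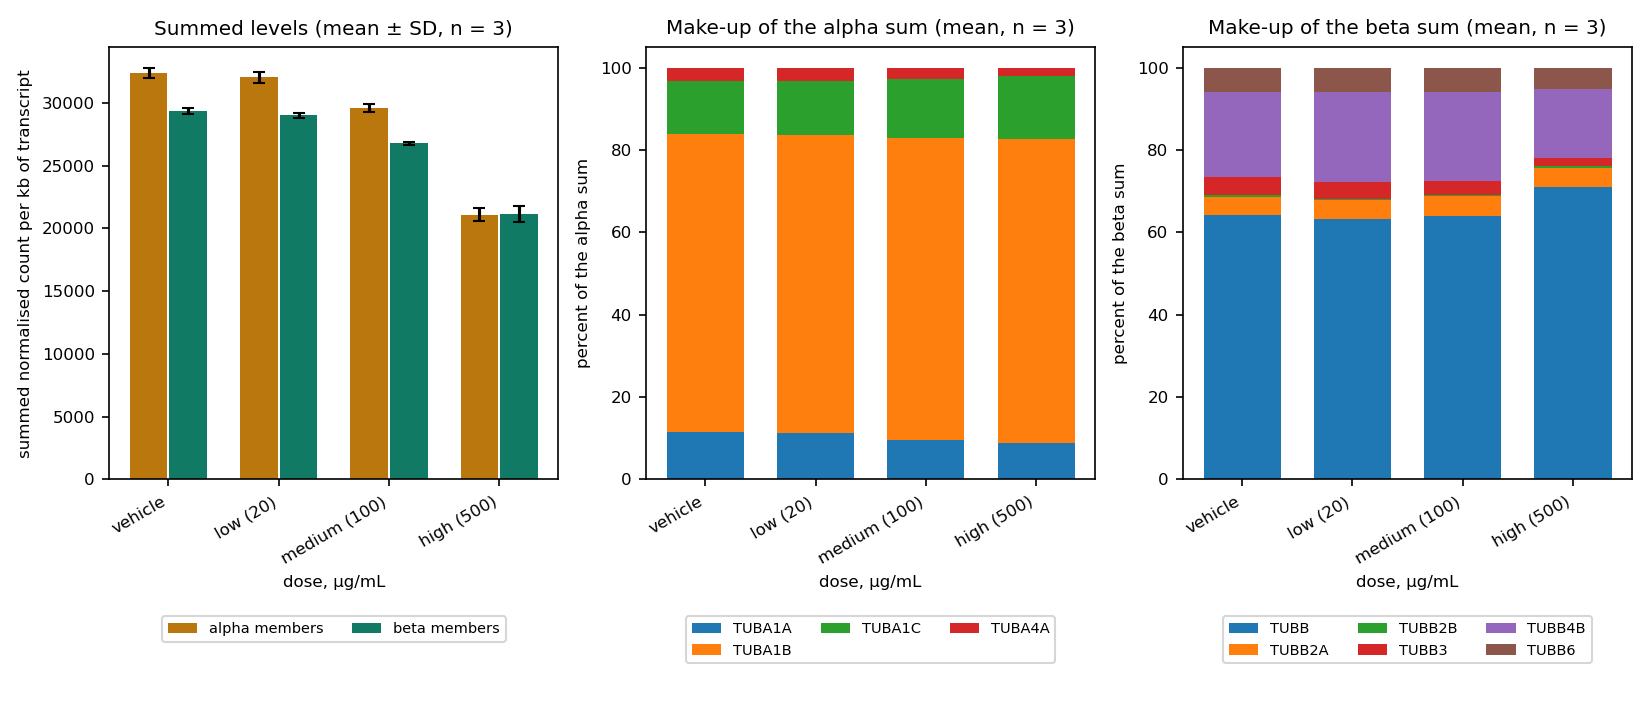
Left, summed normalised counts per kb of transcript of the 4 alpha and the 6 beta genes by group (mean, whiskers SD, n = 3); centre and right, the mean percent that each gene contributed to the alpha and to the beta sum. Both sums step down at 100 and 500 µg/mL, and the part of TUBB in the beta sum is larger at 500 µg/mL (71.0%) than with vehicle (64.1%).

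The 250 bases before the transcription start are shown for the pair that fell most, for TUBB4B, nearly all of whose drop came at the high dose, and for TUBB2B, which did not pass the test at any dose. They were taken from RefSeq (GRCh38.p14) and read in the direction of transcription. Capitals mark CCAAT, the motif of the factor NF-Y, and GGGCGG, that of Sp1, on either strand, where the former reads as ATTGG on the other strand and the latter as CCGCCC.
TUBB3, chr16:89923092-89923341, plus strand: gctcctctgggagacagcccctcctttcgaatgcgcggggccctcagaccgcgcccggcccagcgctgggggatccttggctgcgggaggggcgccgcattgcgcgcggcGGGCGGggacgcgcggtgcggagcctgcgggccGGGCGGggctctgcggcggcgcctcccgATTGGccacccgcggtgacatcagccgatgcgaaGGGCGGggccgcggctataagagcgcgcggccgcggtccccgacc
TUBA4A, chr2:219253919-219254168, minus strand: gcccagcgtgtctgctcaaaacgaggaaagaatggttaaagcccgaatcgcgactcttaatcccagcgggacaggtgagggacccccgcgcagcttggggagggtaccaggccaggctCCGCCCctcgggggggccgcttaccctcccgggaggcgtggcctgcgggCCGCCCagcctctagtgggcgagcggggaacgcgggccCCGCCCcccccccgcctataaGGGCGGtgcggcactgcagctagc
TUBB4B, chr9:137241037-137241286, plus strand: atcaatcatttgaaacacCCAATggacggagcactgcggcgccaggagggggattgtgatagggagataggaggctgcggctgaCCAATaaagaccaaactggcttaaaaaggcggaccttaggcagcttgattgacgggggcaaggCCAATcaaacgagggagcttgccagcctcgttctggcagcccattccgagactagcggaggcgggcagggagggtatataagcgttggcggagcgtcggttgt
TUBB2B, chr6:3227654-3227903, minus strand: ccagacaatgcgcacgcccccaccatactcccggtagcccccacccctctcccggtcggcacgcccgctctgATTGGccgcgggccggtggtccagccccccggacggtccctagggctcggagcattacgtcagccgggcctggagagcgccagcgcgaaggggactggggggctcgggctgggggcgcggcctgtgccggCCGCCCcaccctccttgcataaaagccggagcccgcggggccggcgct
TUBB3 held 1 CCAAT and 3 GGGCGG, TUBA4A 0 and 4, TUBB4B 3 and 0, and TUBB2B 1 of each. Over the 10 tubulin genes, 7 held CCAAT and 8 GGGCGG in these 250 bases, and of 35116 RefSeq promoters of the same length 32.0% and 42.6% did. TTTGAA and TTTAAA, forms of the cell cycle gene homology region, were in 2 and 0 of the tubulin promoters and in 13.3% and 11.3% of all promoters. TGACGTCA, the cAMP response element, was in 1 (TUBB2A) and in 1.65% of all. Both strands were searched, and a match is a description of letters, not of binding.

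The genes that make, modify and use tubulin were counted from fixed lists at the high dose, where 8.66% of genes tested were DEGs higher and 9.57% DEGs lower, and 23.9% rose and 22.6% fell at the adjusted p alone. Of 12 other tubulin genes, 9 had an adjusted p, and 1 was a DEG higher and 1 lower. Among them TUBA3C, TUBA3D, TUBA3E, TUBA8, TUBAL3, TUBB1, TUBB4A and TUBB8 are further alpha or beta isotypes. Their group means were at most 20.5 normalised counts. TUBE1, epsilon tubulin of the centriole, had normalised counts of 364, 348 and 312 with vehicle, 419, 402 and 445 with 20 µg/mL, 776, 776 and 778 with 100 µg/mL and 1307, 1376 and 1317 with 500 µg/mL. No groups overlapped, and the change was 1.97 ± 0.074 in log2 at the high dose, with DESeq2 adjusted p = 1.12e-153. TUBD1, delta tubulin, went from 171 ± 9.6 to 106 ± 12 (log2 -0.69, DESeq2 adjusted p = 1.74e-05). The gamma tubulin ring complex, which nucleates microtubules and whose list also holds TUBG1 and TUBG2 of the previous one, had 0 DEGs among 13 genes in DESeq2 and edgeR. In that list 8 passed the adjusted p alone with either tool, 3 of them higher and 5 lower in DESeq2, and 8 (DESeq2) and 9 (edgeR) had an unadjusted p under 0.05.

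Tubulin folding was covered by 21 matched genes for the CCT chaperonin, prefoldin and the tubulin cofactors. Of them 1 was a DEG higher and 1 lower, against 8.66% and 9.57% of genes tested. At the adjusted p alone 3 rose and 8 fell, against 23.9% and 22.6% of genes tested. PFDN2, a prefoldin subunit, had 671, 702 and 623 normalised counts with vehicle and 1385, 1340 and 1354 at the high dose, a log2 fold change of 1.03 ± 0.067 (DESeq2 adjusted p = 5.13e-52). TBCC, the cofactor that stimulates GTP hydrolysis by beta tubulin during dimer assembly, had 267, 294 and 299 with vehicle and 191, 200 and 179 at the high dose (log2 -0.59, DESeq2 adjusted p = 1.13e-06). In both genes the vehicle and high dose libraries lay apart.

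The mRNA autoregulation list held TTC5, SCAPER and 10 CCR4-NOT subunits. None of its 12 genes was a DEG with DESeq2 or edgeR, while 5 rose and 2 fell at the adjusted p alone (23.9% and 22.6% of genes tested), 8 passed it in edgeR, and 7 (DESeq2) and 8 (edgeR) had an unadjusted p under 0.05. TTC5 itself, named here because it reads the coding starts shown above, had 328, 363 and 337 normalised counts with vehicle and 315, 335 and 328 at the high dose, which overlapped (log2 -0.07 ± 0.10, DESeq2 adjusted p = 0.611). The adaptor SCAPER went from a mean normalised count of 182 with vehicle to 244 at the high dose. Of the CCR4-NOT subunits, CNOT1 went from 5002 to 6209 and CNOT6 from 1552 to 1114. In each of these genes the vehicle and high dose libraries lay apart. These are levels of the factors' mRNAs, and the activity of this decay route was not measured.

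Of 21 tubulin modifying enzymes, 19 had an adjusted p, and 2 were DEGs higher and 3 lower, against 8.66% and 9.57% of genes tested. HDAC6, which deacetylates alpha tubulin, had 1143, 1164 and 1185 normalised counts with vehicle, 1283, 1388 and 1435 with 20 µg/mL, 1611, 1664 and 1725 with 100 µg/mL and 2208, 2223 and 2373 with 500 µg/mL. It rose without overlap between groups, by 0.96 ± 0.053 in log2 at the high dose (DESeq2 adjusted p = 1.23e-72). VASH1, a vasohibin that removes the terminal tyrosine of alpha tubulin, had 606, 580 and 585 with vehicle and 305, 327 and 297 at the high dose (log2 -0.93 ± 0.085, DESeq2 adjusted p = 1.7e-26). Genes on the opposite strand cover 18.9% of its exon bases.

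Of 29 genes for microtubule binding and dynamics, 27 had an adjusted p, and 4 were DEGs higher and 4 lower. Of all genes tested at the high dose, 8.66% were DEGs higher and 9.57% lower. MAP1B, a microtubule-associated protein, had 11990, 11600 and 12020 normalised counts with vehicle and 22970, 22060 and 21940 at the high dose, a log2 fold change of 0.91 ± 0.026 (DESeq2 adjusted p = 5.01e-266). FIGN, a severing enzyme, went from 158 ± 14 to 70.2 ± 6.6 (log2 -1.18, DESeq2 adjusted p = 1.22e-11). Among 28 motor genes 1 was a DEG higher and 2 lower, against 8.66% and 9.57% of genes tested. In edgeR the counts were 0 and 2. DYNLL1, a dynein light chain, had 3368, 3285 and 3308 with vehicle and 1873, 2040 and 2044 at the high dose (log2 -0.74 ± 0.041, DESeq2 adjusted p = 7.26e-72).

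**Figure D4:**
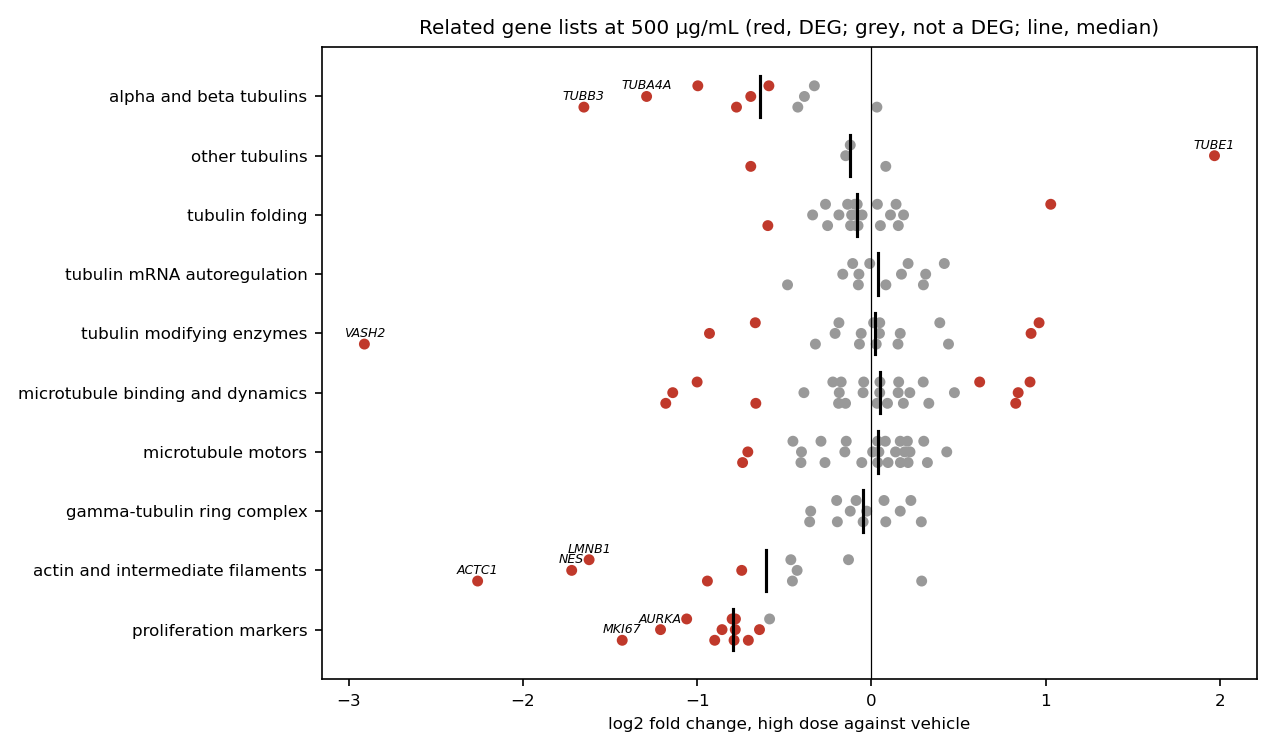
Log2 fold change at the high dose against vehicle (horizontal axis) of the tubulin genes and of 9 related gene lists, for genes averaging 10 or more normalised counts; each point is a gene, red marks DEGs and black lines list medians. The medians of the tubulin genes (-0.64), the actin and intermediate filament genes (-0.60) and the proliferation markers (-0.79) lie lowest. That of the other tubulins is -0.12, and those of the folding, autoregulation, enzyme, binding, motor and nucleation lists lie between -0.081 and 0.048.

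Actin and intermediate filament genes were taken as other filaments of the cell. Of 12, 11 had an adjusted p, and 0 were DEGs higher and 5 lower at the high dose, against 8.66% and 9.57% of genes tested. At the adjusted p alone 1 rose and 9 fell, against 23.9% and 22.6% of genes tested. The gene that rose was VIM, the intermediate filament vimentin, from a mean normalised count of 88410 to 108000. NES, the intermediate filament nestin, had 212, 227 and 204 normalised counts with vehicle and 60.2, 73.0 and 60.8 at the high dose (log2 -1.72 ± 0.16, DESeq2 adjusted p = 6.17e-26). At the medium dose the list was mixed, with 4 genes that rose, 3 that fell (14.5% of genes tested fell) and a median of 0.057. The share of genes tested that rose at this dose was not computed. The mean of ACTB was 152700 with vehicle, 176600 at the medium and 110900 at the high dose. That of ACTG1 was 75560, 100400 and 68980.

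Proliferation markers fell in the same libraries as the tubulins. Of 12 markers, 11 were DEGs lower at the high dose in DESeq2 and 12 in edgeR, and all 12 fell at the adjusted p alone. Of all genes tested with DESeq2, 9.57% were DEGs lower at that dose and 22.6% fell. At the medium dose 11 fell and none was a DEG with either tool, with 12 at an unadjusted p under 0.05 in each. Of all genes tested there with DESeq2, 14.5% fell and 1.48% were DEGs lower. MKI67, the antigen of cycling cells, had 5647, 5418 and 5639 normalised counts with vehicle, 5340, 5248 and 5181 with 20 µg/mL, 3925, 3758 and 3890 with 100 µg/mL and 2244, 1917 and 2033 with 500 µg/mL. The summed counts of the 12 markers were 36220 to 37330 with vehicle, 35160 to 35710 with 20 µg/mL, 29480 to 30110 with 100 µg/mL and 18840 to 19740 with 500 µg/mL. None of the 12 was at 0. The part of cycling cells in the tubulin result was not tested, and in bulk RNA fewer cells of a kind and less RNA per cell cannot be told apart.

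The cell type label was checked with 10 astrocyte and 10 neuron markers, of which VIM, NES, GFAP, MAP2 and DCX also stand in a list above. VIM and CD44 were abundant and SOX9, SLC1A3 and NES detected, but AQP4 was at 0 in every library and GFAP, S100B, ALDH1L1 and SLC1A2 had mean normalised counts under 10, so that 5 of the 10 astrocyte markers were at or near 0 and 5 were expressed. At the high dose 8 of the 10 had an adjusted p, of which 2 were DEGs lower. Of all genes tested at that dose, 8.66% were DEGs higher and 9.57% lower. At the adjusted p alone 1 of the astrocyte markers (VIM) rose and 4 fell, where 23.9% and 22.6% of genes tested did. The summed astrocyte list ranged from 144300 to 152100 with vehicle and from 152300 to 154000 at the high dose, and VIM (88410 to 108000) and CD44 (56910 to 43680) made up most of it. SLC1A3, the glutamate transporter, had 671, 685 and 714 with vehicle and 127, 122 and 130 at the high dose (log2 -2.45 ± 0.11, DESeq2 adjusted p = 3.85e-115). Of the neuron markers, RBFOX3, DCX, ELAVL3 and GAP43 had means under 10 and ELAVL4 was at 0. NCAM1, SNAP25, SYT1 and MAP2 were detected, with vehicle means of 754, 704, 638 and 181, and SYP was low at 14.5. At the high dose 6 of the 10 neuron markers had an adjusted p. Of them 3 rose and 1 (SNAP25) fell at the adjusted p alone, where 23.9% and 22.6% of genes tested did. SYT1 went from 638 to 868 and NCAM1 from 754 to 853. The neuron list summed to 2287 to 2308 with vehicle and 2189 to 2245 at the high dose. Its 2 DEGs had opposite directions, with SNAP25 at -2.07 ± 0.10 in log2 (DESeq2 adjusted p = 3.68e-91) and MAP2 at 0.83 ± 0.12 (DESeq2 adjusted p = 3.99e-11), while TUBB3 stood at -1.65.

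Across the 12 libraries, the log2 of the summed tubulin counts was most like that of SIRPA, a receptor of CD47, among 10581 protein-coding genes outside the lists, with Pearson's r = 0.999 and Spearman's rho = 0.979. NREP, MEIS2 and KIF20A were among those that followed, with r between 0.997 and 0.998. SIRPA changed by -1.09 ± 0.041 in log2 at the high dose and KIF20A, a mitotic kinesin, by -1.62 ± 0.051. The most inverse were ANXA1, ATP2B1, SDCBP, GNA13 and FNIP1, with r between -0.998 and -0.997, and ATP2B1, a calcium pump of the plasma membrane, changed by 0.94 ± 0.026. These values are a description, since the 12 libraries fall into 4 dose groups and any gene that follows the dose shares that ordering.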

How the data were processed

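RNA was sequenced by the authors as strand-specific paired-end reads from SW1783 cells, 3 libraries in each of 4 groups. The submitters' processing notes name FastQC 0.11.9, Trim Galore 0.6.5, STAR 2.7.3a and RSEM 1.3.3 on GRCh38. The deposited values are RSEM expected counts per gene, which divide shared reads among genes. Of these values 8.75% were not whole, and they were rounded to whole numbers here. Whether RSEM used the strand is not given in the sources used here. Gene symbols, coordinates (1-based) and transcripts came from GENCODE v44, which held 93.2% of IDs and 99.9% of counts. 0 columns could not be mapped to a library.

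Counts were fitted with DESeq2 1.42.0 in R 4.3.3 on all 12 libraries with group as the only term (two-sided Wald test, Benjamini-Hochberg over all genes tested, independent filtering at 0.05), after the test named in the study's methods. Genes below a mean normalised count of 1.72 (high dose), 18.3 (medium dose) or 263 (low dose) got no adjusted p, TUBB2B at the low dose among them. Normalised counts are counts over DESeq2 size factors. Intervals are 95%. edgeR 4.0.16 was an alternative. Scripts were tested on simulated data. Replicates differed by more than counting noise (chi-square per degree of freedom of at least 2.06), and all were kept.

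Replicate numbers are shared between groups. Same-numbered libraries of the medium and low dose deviated together (correlations 0.124 to 0.193). Against vehicle they did not (-0.118 to -0.00687), and between high and medium dose the correlations were 0.0355 to 0.221. The data are the sole source of that pairing.

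The members and lists were chosen with earlier results of these data known. Genes outside the members were named by rule: in each related list the largest change each way among DEGs at the high dose averaging 100 or more normalised counts, the cell type and proliferation markers, and the 5 genes most like and 5 most unlike the summed members. TTC5, SCAPER, CNOT1 and CNOT6 were named outside that rule after their values were seen. Some sequences and 1 of the genes chosen by this rule are not reported here. TBCE had no match. Alternatives were other scaling factors, a low-count filter, edgeR, fits of 2 groups, a replicate block, leaving out each library and summing near-identical genes; the count at the adjusted p alone was planned, and its repeats under the other alternatives were added after seeing the data.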

Additional observations from a re-analysis of the deposited data

How the results depend on the processing

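With no fold threshold 7 members passed at the medium dose, 9 high against medium dose and 6 medium against low dose. With library totals as the scale, which shifts the median of all genes by -0.11 at the high and at the medium dose, 1 member was a DEG at the medium dose, 9 in place of 7 passed the adjusted p alone there (TUBA1C, which turned negative, and TUBB2A were gained), 1 (TUBB) did at the low dose, and the high dose sums were 60.2% (alpha) and 66.6% (beta) of vehicle. With exon union lengths TUBA1B made up 68.8% of the alpha sum with vehicle and 69.8% at the high dose, TUBA4A 3.69% and 2.31%, TUBB3 1.64% and 0.722% of the beta sum, and TUBB 70.2% at the high dose. Leaving out each library in turn gave 5 to 6 DEGs at the high dose, 4 to 5 high against medium dose and 0 in the other comparisons. At the adjusted p alone the ranges were 9 to 9 at the high dose, 5 to 7 at the medium dose and 0 to 0 at the low dose, and 9 to 9 differed among the groups. The sums ranged from 64.3% to 66.0% (alpha) and 71.0% to 73.1% (beta), TUBA1B from 72.4% to 72.6% with vehicle and 73.9% to 74.2% at the high dose, TUBB from 63.9% to 64.3% and 70.7% to 71.2%, TUBA4A from 3.17% to 3.23% and 1.96% to 2.06%, and TUBB3 from 4.37% to 4.50% and 1.94% to 1.99%.

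With the replicate block 6, 0 and 0 members were DEGs at the high, medium and low dose, 4 high against medium dose and 0 medium against low dose, so that it changed no DEG call of a member, and at the adjusted p alone 6 passed at the medium dose, where TUBB4B was lost. With near-identical genes summed, 4 of the 7 features were DEGs at the high dose. For single genes 671 alternative values stayed on their side of the threshold, 2 gained and 2 lost the DEG call, and none of the DEG calls reversed its direction. The cause of these differences was not tested. At this depth the standard error of TUBB2B, 0.146 in log2, was the largest and limits what can be said of it.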
